A study of Mus musculus with 6 samples.

Results

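The 31 integrated stress response genes described here were chosen by name from 18217 genes with a symbol on the array. They comprise the 4 kinases that phosphorylate the translation initiation factor eIF2, 7 bZIP transcription factors, 8 effectors of the response, and 12 amino acid genes, namely 8 enzymes and 4 transporters. Earlier results of these data were known when the genes were chosen, so counts of members set beside all genes are descriptions. All 31 had a probe on the array (45 probes in all), and 30 were tested. The remaining gene, Aldh1l2, a mitochondrial folate dehydrogenase, was not distinguished from background on any of the 6 arrays. Of the 31, 27 were well above background on all 6 arrays, and no member passed the filter on dim probes through 1 genotype alone.

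RNA of whole livers of mice aged 5 weeks was measured on 6 one-colour Agilent arrays, 1 array per sample. The 3 control livers are labelled as wild type and the 3 CKO livers as carrying a liver-specific knockout of the small Maf genes, which encode bZIP proteins that bind DNA as partners of factors such as NRF1 and NRF2. Both groups share a mixed strain background of 129Sv/J, C57BL/6J and ICR. The labels used here do not state which small Maf genes were deleted, the promoter that drove the recombinase, or the sex of the mice. The submitters call the RNA samples of a genotype independent of each other.

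A level below is the log2 processed signal of a gene's probe relative to the 75th percentile of all probes on the same array, so a level of 0 lies at that percentile, and a difference is the CKO mean minus the control mean of these levels. Levels of different genes come from different probes and are not set against each other. Each difference has its standard error (SE) from limma with 3 arrays per genotype, and a gene is said to have risen or fallen where the adjusted p was under 0.05 over all 21059 genes and unmatched transcripts tested.

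The integrated stress response couples several kinds of stress to 1 event, the phosphorylation of eIF2, which lowers general protein synthesis. A few mRNAs with upstream reading frames, Atf4 foremost, are then translated more, and ATF4 protein turns on further bZIP factors, amino acid synthesis and transport, and feedback inhibitors of the response. Both eIF2 phosphorylation and the control of ATF4 act largely after transcription, which an RNA array does not measure. In liver the response is known for amino acid deprivation and endoplasmic reticulum stress, and the fasting hormone FGF21 is encoded by a known target gene of ATF4.

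Of the 30 members tested, 2 rose in CKO liver and none fell, beside 0.541% of all genes tested that were called (0.385% rose and 0.157% fell). The 2 were Nupr1 and Atf3, which were 13.5-fold and 10.9-fold higher. The next largest difference was that of Ddit3, at 4.20-fold with an adjusted p of 0.0854. At an unadjusted p under 0.05, 14 members passed, 10 higher and 4 lower, beside 16.8% of all genes tested (8.71% higher and 8.1% lower). The CKO mean was higher for 21 members and lower for 9, whereas over all genes tested it was higher for 45.3% and lower for 54.7%. The median difference was 0.40 over the members and -0.05 over all genes tested, of which the 5th to 95th percentiles ran from -0.90 to 1.01. The median over the members was 0.22 where genes had to be well above background on all 6 arrays, and 0.71 with spike-in scaling, which raises all genes.

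The arrays came from 2 slides, which the labels do not mention and the file headers record. Slide 1 held replicates 1 and 2 of both genotypes, and slide 2 held replicate 3 of both. With the slide as a block, 3 members rose (Atf3, Nupr1 and Ddit3) and none fell, beside 1.61% of all genes called (0.992% rose and 0.622% fell). The median difference over the members was 0.52 within slide 1 and 0.15 within slide 2, where 1 control and 1 CKO array leave no measure of spread. The difference had the same sign within both slides for 26 of the 30 members, beside 68.9% of all genes tested. The 75th percentile of the signal lay between 483 and 961 on the 6 arrays, and the share of probes well above background from 58.0% to 73.6%. Mafg, 1 of the 3 small Maf genes, was at 1.88, 1.87 and 2.23 in the controls and at -2.97, -4.36 and -0.76 in the CKO livers. Its difference was -4.69 (SE 0.79, adjusted p = 0.0533, and 0.0207 with the slide as a block). Whether its probe lies in the deleted part was not checked here. Maff and Mafk differed by 0.15 and 0.21, with adjusted p of 0.911 and 0.759.

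**Figure D1:**
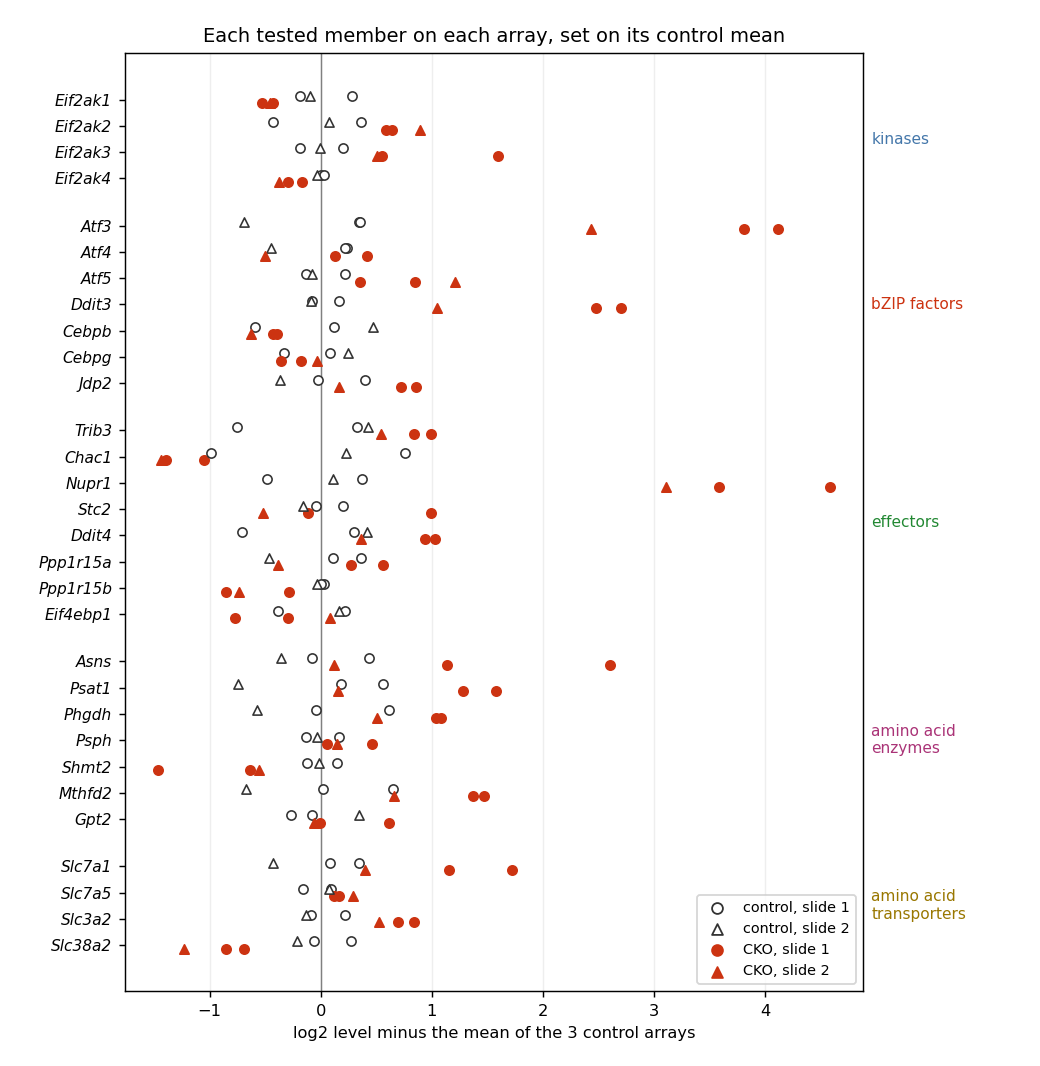
Log2 level of the 30 tested members on each array minus the mean of the 3 control arrays of the same gene, by role. Open symbols are controls and filled symbols CKO livers, circles stand for slide 1 and triangles for slide 2. The CKO arrays of Nupr1, Atf3 and Ddit3 stand to the right of their controls, whereas the arrays of Atf4 overlap.

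None of the 4 eIF2 kinases rose or fell, and the 4 did not share a direction. For all 4, however, the 3 CKO arrays lay wholly to 1 side of the controls on the brightest kept probe. They were above the controls for 2 kinases and below them for 2. Such a separation held for 17 of the 30 members tested (11 higher and 6 lower in CKO liver), beside 22.9% of all genes tested (11.3% higher and 11.6% lower). Eif2ak3 encodes PERK, the kinase of the endoplasmic reticulum membrane that senses unfolded protein. It was at -0.10, -0.48 and -0.31 in the controls and at 1.30, 0.25 and 0.21 in the CKO livers. The first CKO liver stood well above the other 2, and these in turn lay above each control. The difference was 0.88 (SE 0.33, adjusted p = 0.248). Eif2ak2 encodes PKR, which is activated by double-stranded RNA. Its levels were -0.63, 0.16 and -0.13 in the controls and 0.44, 0.39 and 0.69 in the CKO livers, a difference of 0.71 (SE 0.26, adjusted p = 0.243). The controls of Eif2ak2 were more scattered (SD 0.40, n = 3) than the CKO livers (SD 0.16, n = 3).

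The other 2 kinases were at lower mean levels in CKO liver. Eif2ak1 encodes HRI, the kinase controlled by haem. It was at 0.63, 0.17 and 0.26 in the controls and at -0.18, -0.07 and -0.10 in the CKO livers. The CKO livers were close together and below each control, and the difference was -0.47 (SE 0.22, adjusted p = 0.323). Eif2ak4 encodes GCN2, the kinase that senses uncharged tRNA. Its controls lay within -0.62 to -0.55 and its CKO livers within -0.96 to -0.75. The difference of -0.28 (SE 0.19, adjusted p = 0.504) was narrow and became 0.034 when the arrays were scaled on spike-in probes, a scaling that moves the median of all genes from -0.05 to 0.26. Within slides 1 and 2, the differences were 1.06 and 0.52 for Eif2ak3, 0.65 and 0.82 for Eif2ak2, -0.53 and -0.36 for Eif2ak1, and -0.25 and -0.34 for Eif2ak4. The median of the 4 kinases was 0.21. Eif2ak1 and Eif2ak4 each had another kept probe, on which the groups overlapped and the differences were -0.78 and -0.14.

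Among the 7 bZIP factors, Atf3 rose, none fell, and Ddit3 passed the threshold with the slide as a block but not without it. The mean was higher in CKO liver for 5 of the 7, and the median difference was 0.58. Beside 22.9% of all genes tested (11.3% higher), the arrays did not overlap for 3 of the 7 (Atf3, Ddit3 and Atf5), each higher in CKO liver. Atf4 was not among them.

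ATF3 is a stress-induced factor that can repress or activate transcription and is encoded by a target gene of ATF4. Atf3 was at -1.44, -1.43 and -2.48 in the controls and at 2.03, 2.33 and 0.65 in the CKO livers. Every CKO array lay above every control, and in both genotypes the slide 2 array was the lowest. The difference was 3.45 (SE 0.49, 95% interval 2.31 to 4.59, adjusted p = 0.0402), the 29th highest of all genes tested. It was 3.61 within slide 1 and 3.12 within slide 2, and the adjusted p with the slide as a block was 0.00394. The 250 bases before the annotated start of Atf3 in RefSeq (GRCm38.p6, chr1:191183334-191183583, minus strand) are shown because this gene rose and because its promoter holds the letters TTNCATCA. These are the core of the C/EBP-ATF response element (CARE), the kind of site at which ATF4 and CHOP are known to bind as partners of C/EBP factors. The capitals mark the match.
Atf3: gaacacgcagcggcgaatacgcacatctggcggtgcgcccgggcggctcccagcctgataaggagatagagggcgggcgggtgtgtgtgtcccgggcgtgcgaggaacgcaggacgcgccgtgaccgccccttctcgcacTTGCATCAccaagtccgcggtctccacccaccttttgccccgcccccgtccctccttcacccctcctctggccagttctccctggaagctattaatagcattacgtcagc

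Ddit3 encodes CHOP, a factor associated with prolonged endoplasmic reticulum stress and cell death. It was at -0.84, -0.60 and -0.85 in the controls and at 1.71, 1.93 and 0.28 in the CKO livers. The controls were close together, the groups did not overlap, and the CKO liver on slide 2 was well below the other 2. The difference was 2.07 (SE 0.42, 95% interval 1.08 to 3.06), with an adjusted p of 0.0854, and of 0.0354 with the slide as a block. Within slides 1 and 2 it was 2.54 and 1.13. Without CKO replicate 3 the adjusted p was 0.00987, and where genes had to be well above background on all 6 arrays it was 0.0490. It was 0.107 with quantile normalization and with normexp, 0.333 with spike-in scaling and 0.252 with no filter. Leaving out control replicates 1, 2 and 3 and CKO replicates 1 and 2 gave 0.247, 0.115, 0.204, 0.258 and 0.203.

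Atf4 encodes the central factor of the response, whose control is mainly translational. Its levels were 1.45, 1.43 and 0.76 in the controls and 1.35, 1.63 and 0.71 in the CKO livers. The groups overlapped, and both slide 2 arrays were below the 4 slide 1 arrays. The difference was 0.01 (SE 0.32), and its 95% interval ran from -0.73 to 0.75, which leaves room for a change of either sign. Atf5, a related factor that is also under translational control and is abundant in liver, was at 6.67, 6.32 and 6.37 in the controls and at 6.81, 7.30 and 7.67 in the CKO livers. The groups did not overlap, and the difference was 0.80 (SE 0.27, adjusted p = 0.214).

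The other 3 bZIP factors had overlapping groups. Jdp2, a repressor related to ATF3, was at 0.01, -0.41 and -0.75 in the controls and at 0.33, 0.47 and -0.22 in the CKO livers, with the slide 2 array the lowest in both genotypes. Its difference of 0.58 (SE 0.29, adjusted p = 0.365) was similar within both slides, at 0.60 and 0.54. Cebpb encodes a C/EBP factor of the acute phase and a dimer partner of ATF4 and CHOP. Its mean was 2.77 ± 0.54 (SD, n = 3) in the controls and 2.29 ± 0.12 (SD, n = 3) in the CKO livers, a difference of -0.48 (adjusted p = 0.456) that was -0.18 within slide 1 and -1.09 within slide 2. Cebpg, another partner of ATF4, differed by -0.19 (SE 0.24, adjusted p = 0.721), and by 0.12 when scaled on spike-in probes.

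**Figure D2:**
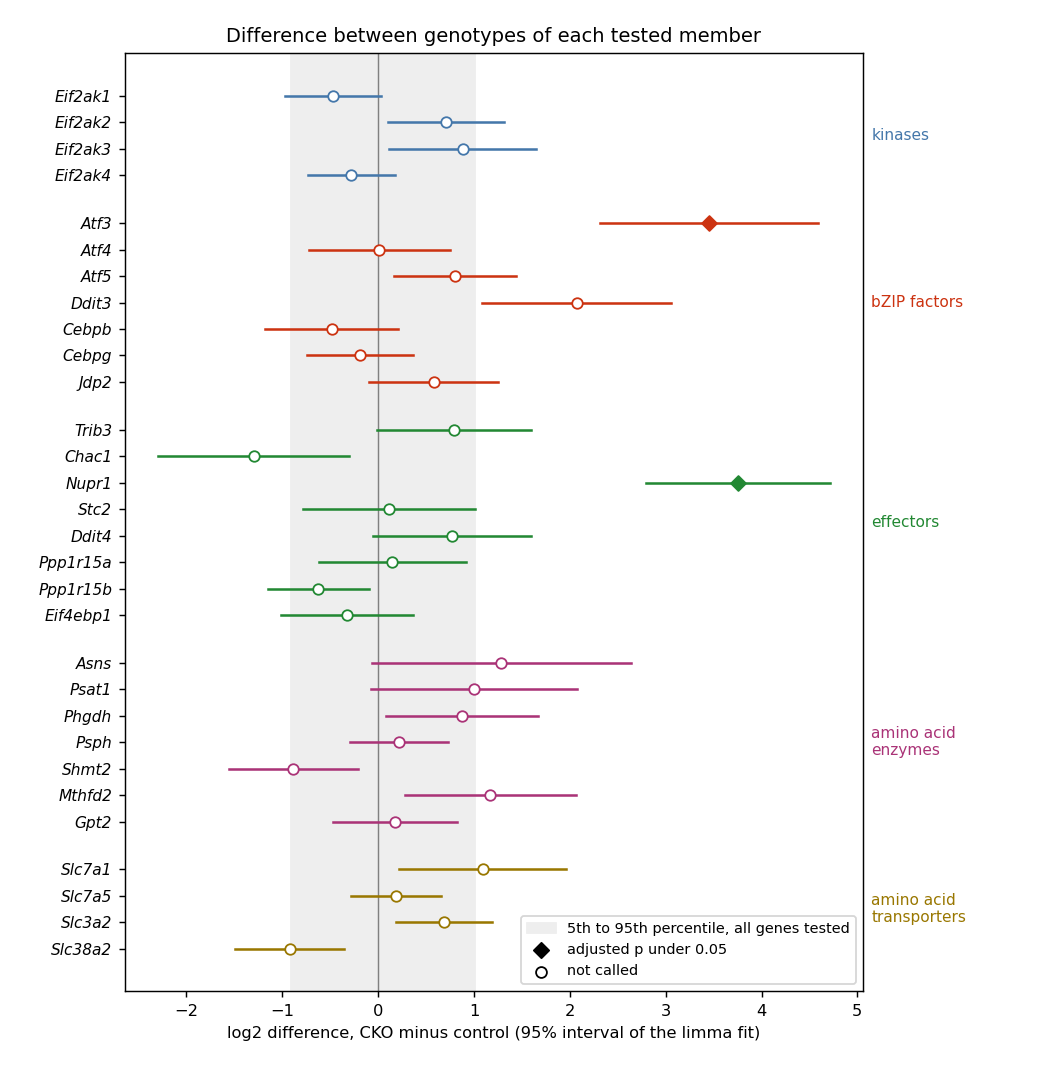
Log2 difference (CKO minus control) of the 30 tested members, by role, with its 95% interval from limma as a line. The shaded band is the 5th to 95th percentile range of all genes tested, and filled diamonds mark an adjusted p under 0.05. Nupr1 at 3.75, Atf3 at 3.45 and Ddit3 at 2.07 lie farthest above that band, and Chac1 at -1.30 lies farthest below it.

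Among the 8 effectors, Nupr1 rose and none fell. The mean was higher in CKO liver for 5 and lower for 3, and the median difference was 0.13. On slide 1 alone this median was 0.27 and on slide 2 alone -0.07, and it became -0.024 without control replicate 3 and -0.082 without CKO replicate 1.

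Nupr1 encodes a small chromatin-associated stress protein that is a known target of ATF4. It was at 0.03, -0.82 and -0.23 in the controls and at 4.24, 3.24 and 2.76 in the CKO livers. The lowest CKO array was above the highest control by more than the spread within either genotype (SD 0.44 in the controls and 0.75 in the CKO livers, n = 3 each). The difference was 3.75 (SE 0.41, 95% interval 2.80 to 4.71, adjusted p = 0.0218), the 19th highest of all genes tested. Within slides 1 and 2 it was 4.14 and 2.99, and the adjusted p with the slide as a block was 0.0141. The 250 bases before the RefSeq start (GRCm38.p6, chr7:126625471-126625720, minus strand) are shown because this member had the largest difference. The CARE letters, in capitals, begin 110 bases before the start, as they do in Atf3.
Nupr1: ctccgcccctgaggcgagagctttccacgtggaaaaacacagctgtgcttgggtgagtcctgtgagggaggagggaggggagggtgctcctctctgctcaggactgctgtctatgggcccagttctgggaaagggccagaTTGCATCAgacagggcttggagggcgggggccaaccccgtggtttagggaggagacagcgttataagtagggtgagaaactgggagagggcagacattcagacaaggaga

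The calls of Atf3 and Nupr1 rest on most of the arrays. Leaving out control replicate 1, control replicate 3, CKO replicate 1 or CKO replicate 2 ended both: the adjusted p of Nupr1 became 0.128, 0.0610, 0.0858 and 0.0840, and that of Atf3 0.160, 0.113, 0.155 and 0.105. Both calls were also lost with quantile normalization (0.0596 for Nupr1 and 0.0624 for Atf3), with spike-in scaling (0.0524 and 0.107) and without the filter on dim probes (0.0889 and 0.152), while both differences were above 0 under each of these settings.

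Chac1 had the lowest difference of any member. It encodes a glutathione-degrading enzyme that is usually counted among the targets of ATF4 and CHOP. It was at 2.43, 0.69 and 1.90 in the controls and at 0.62, 0.28 and 0.23 in the CKO livers. The second control was far below the other 2 and close to the highest CKO liver, although the groups did not overlap. The difference was -1.30 (SE 0.43, 95% interval -2.29 to -0.30, adjusted p = 0.204), and it was -1.11 and -1.67 within slides 1 and 2. Atf3, Ddit3 and Nupr1 thus differed in the opposite direction from Chac1 in the same livers, though the Chac1 difference did not pass the test.

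Trib3 encodes a pseudokinase that is induced by ATF4 and CHOP and restrains them. It was at 2.57, 1.49 and 2.67 in the controls and at 3.09, 3.24 and 2.79 in the CKO livers. The groups did not overlap, but on slide 2 the control and the CKO liver were only 0.12 apart, whereas on slide 1 the difference was 1.13. Over all 6 arrays it was 0.79 (SE 0.35, adjusted p = 0.303). On the other kept probe of Trib3 the groups overlapped, and the difference was 0.53. There the slide 2 arrays were at 0.32 in the control and 0.15 in the CKO liver. Ddit4 encodes REDD1, an inhibitor of mTORC1 that responds to stress and glucocorticoids. Its levels were 2.93, 1.93 and 3.05 in the controls and 3.58, 3.66 and 2.996 in the CKO livers. Its pattern resembled that of Trib3, with a difference of 1.19 within slide 1 and of -0.06 within slide 2. Its groups overlapped, and the difference over all 6 arrays was 0.77 (SE 0.35, adjusted p = 0.323).

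The 2 regulatory subunits that direct phosphatase 1 to eIF2 had different values. Ppp1r15a encodes GADD34, the induced subunit that ends the response. It was at -0.49, -0.74 and -1.31 in the controls and at -0.28, -0.57 and -1.23 in the CKO livers. The groups overlapped almost fully, and the difference was 0.15 (SE 0.33, 95% interval -0.62 to 0.92, adjusted p = 0.853). Ppp1r15b encodes CReP, the constitutive subunit. It was at 2.57, 2.54 and 2.51 in the controls and at 1.68, 2.25 and 1.80 in the CKO livers. The controls were nearly equal and above each CKO liver, and the difference was -0.62 (SE 0.23, adjusted p = 0.238). On the other kept probe of Ppp1r15b the second CKO liver was above each control, and the difference was -0.43.

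The other 2 effectors differed little. Eif4ebp1, whose product binds eIF4E and inhibits cap-dependent translation, was at 4.73 ± 0.34 (SD, n = 3) in the controls and 4.40 ± 0.43 (SD, n = 3) in the CKO livers (adjusted p = 0.609). Stc2, a secreted glycoprotein of the stanniocalcin family, was well above background on 2 of 3 arrays of each genotype and differed by 0.12 (SE 0.39, adjusted p = 0.908).

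None of the 11 amino acid genes tested rose or fell. The mean was higher in CKO liver for 9 and lower for 2, and the median difference was 0.69. That median was 0.22 when genes had to be well above background on all 6 arrays, a filter that leaves out the dim probes of Mthfd2 and Slc7a1.

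Serine is made by the products of 3 of the enzyme genes: Phgdh, Psat1 and Psph encode the successive steps. Phgdh, the first step, was at -1.85, -1.19 and -2.38 in the controls and at -0.72, -0.77 and -1.31 in the CKO livers. The third CKO liver alone was below the highest control, and the difference was 0.87 (SE 0.34, adjusted p = 0.262, and 0.120 with the slide as a block). Psat1 was at -2.94, -2.56 and -3.86 in the controls and at -1.54, -1.84 and -2.96 in the CKO livers. On both slides the CKO arrays were above the controls of the same slide, and across slides the groups overlapped. The difference was 1.004 (SE 0.46, adjusted p = 0.323, and 0.0734 with the slide as a block). Psph, the last step, differed by 0.22 (SE 0.22, adjusted p = 0.647).

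Mitochondrial serine and folate metabolism was represented by Shmt2, which splits serine into glycine and a one-carbon unit, and Mthfd2, which oxidises that unit. They differed in opposite directions without passing the test. Shmt2 was at 3.84, 3.57 and 3.67 in the controls and at 2.23, 3.06 and 3.14 in the CKO livers. No CKO array reached the lowest control, and the difference was -0.88 (SE 0.29, adjusted p = 0.201). Mthfd2 was at -4.38, -3.75 and -5.08 in the controls, of which 2 of 3 were well above background, and at -2.93, -3.03 and -3.74 in the CKO livers. The lowest CKO array lay next to the highest control, and the difference was 1.17 (SE 0.38, adjusted p = 0.202, and 0.0647 with the slide as a block).

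Asns, the asparagine synthetase gene from which the amino acid response element was described, was at -1.39, -0.88 and -1.67 in the controls and at -0.18, 1.29 and -1.19 in the CKO livers. The CKO livers ranged widely (SD 1.25, n = 3), and the third lay within the controls. The difference was 1.29 (SE 0.58, adjusted p = 0.315). It was larger on slide 1, at 1.69, than on slide 2, at 0.48. Gpt2, the mitochondrial alanine aminotransferase, differed by 0.18 (SE 0.28, adjusted p = 0.780).

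Each of the 4 transporter genes had arrays that did not overlap between genotypes on its brightest kept probe. CKO was higher for 3 and lower for 1. Over all genes tested such a separation held for 22.9% (11.3% higher and 11.6% lower). Slc38a2 encodes SNAT2, which takes up small neutral amino acids and is induced by amino acid starvation. It was at 4.62, 4.28 and 4.14 in the controls and at 3.65, 3.50 and 3.12 in the CKO livers. Each CKO liver was below each control, and the difference was -0.92 (SE 0.24, 95% interval -1.49 to -0.36, adjusted p = 0.147, and 0.0788 with the slide as a block). Within slides 1 and 2 it was -0.88 and -1.02. Slc3a2 encodes the heavy chain 4F2hc shared by several amino acid exchangers. It was at 3.78, 3.48 and 3.43 in the controls and at 4.41, 4.26 and 4.09 in the CKO livers, a difference of 0.69 (SE 0.22, adjusted p = 0.190). On the other kept probe of Slc3a2 the groups overlapped, and the difference was 0.50. Slc7a5 encodes LAT1, a light chain that pairs with 4F2hc, and differed by 0.19 (SE 0.20, adjusted p = 0.668). Slc7a1 encodes the cationic amino acid transporter CAT1 and was well above background on 2 of 3 control arrays. Its brighter probe differed by 1.09 (SE 0.37, adjusted p = 0.216), whereas its other kept probe, on which the groups overlapped, differed by -0.00. It was the 1 gene of 11 with several kept probes whose probes did not share a sign at 2 decimals.

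**Figure D3:**
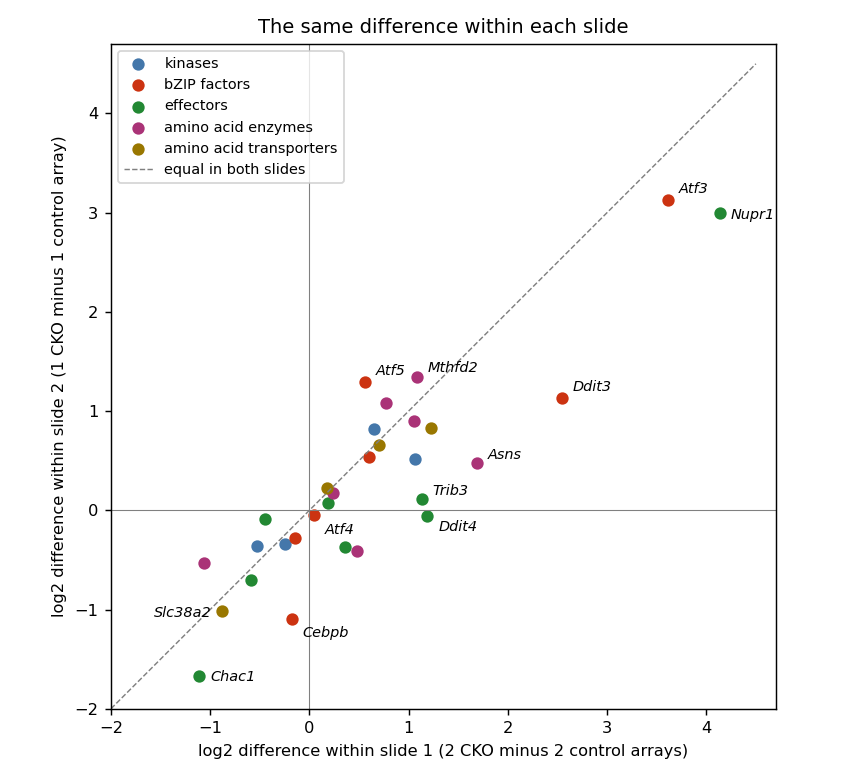
Log2 difference (CKO minus control) of each tested member within slide 1 (2 arrays per genotype) against that within slide 2 (1 array per genotype). Atf3 and Nupr1 lie at 2.99 or above on both axes, Ddit3 at 2.54 and 1.13, and 26 of the 30 members have the same sign on both.

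Of the 31 members, 27 matched a RefSeq promoter of GRCm38.p6, taken as 250 bases before to 50 bases after an annotated start (33 promoters). The CARE letters TTNCATCA, or TGATGNAA as read on the other strand, were in a promoter of 6 of the 27 (22.2%), beside 3.97% of all 32851 promoters of that length. Because these genes were grouped for their known place in the response, the share is a description. Here and for the motifs below, members are counted as genes with the letters in any of their promoters, and the background as single promoters. Besides Atf3 and Nupr1, the 6 were Chac1, Trib3, Asns and Jdp2, whose differences ran from -1.30 for Chac1 to 1.29 for Asns. Ddit3 had no such letters in this window. The sites of these 4 are shown to set them beside those of the 2 genes that rose, with the match in capitals and each sequence on the strand of its gene. They lie at chr2:119351023-119351082 (plus strand) for Chac1, chr2:152344028-152344057 (minus strand) for Trib3, chr6:7693210-7693269 (minus strand) for Asns and chr12:85599356-85599415 (plus strand) for Jdp2. In Trib3 the match lies after the annotated start, and in Asns and Jdp2 it is on the opposite strand.
Chac1: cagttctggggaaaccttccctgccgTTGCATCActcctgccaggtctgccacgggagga
Trib3: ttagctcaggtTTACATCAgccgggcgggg
Asns: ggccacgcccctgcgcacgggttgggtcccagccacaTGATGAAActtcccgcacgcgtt
Jdp2: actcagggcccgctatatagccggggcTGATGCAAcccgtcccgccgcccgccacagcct

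The same 8 letters of the match, TTGCATCA, stand in Atf3, Nupr1 and Chac1, and these 3 genes did not share a direction. The antioxidant response element core TGACNNNGC, to which heterodimers of small Maf and CNC factors are known to bind, was searched on both strands and was in a promoter of 8 of the 27 members (29.6%), beside 12.4% of all promoters. The 8 were Asns, Cebpb, Phgdh, Ppp1r15a, Psph, Slc38a2, Slc7a1 and Stc2, and neither Atf3 nor Nupr1 was among them. Their differences ran from -0.92 for Slc38a2 to 1.29 for Asns. The cAMP response element TGACGTCA, a palindrome bound by ATF and CREB factors, was in 1 member, Ppp1r15a, and in 1.79% of all promoters. A match says that the letters are present, and none of these data measure binding.

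Other genes of the pathway were counted from 4 lists. Of 17 tested among 19 other targets of ATF4 and CHOP, 1 rose and none fell, the mean was higher in CKO liver for 12, and the median difference was 0.69. That median was 0.12 under the filter on all 6 arrays, 0.41 with no filter and 1.005 with spike-in scaling. The gene that rose was Fgf21, a fasting and stress hormone of the liver and a known ATF4 target. It was at 0.45, -0.82 and 0.11 in the controls and at 2.86, 4.08 and 3.07 in the CKO livers. The groups were far apart, and the difference was 3.42 (SE 0.43, adjusted p = 0.0367, and 0.0234 with the slide as a block). The Fgf21 promoter also holds the CARE letters. Without control replicate 1, control replicate 3, CKO replicate 1 or CKO replicate 2 its adjusted p was 0.128, 0.0884, 0.120 and 0.0840. The call was also lost with quantile normalization (0.0596) and with no filter (0.139). With the slide as a block, Tnfrsf10b, the death receptor DR5 and a target of CHOP, also passed (difference 2.25, adjusted p = 0.0259). Without the block its adjusted p was 0.0554, and it was well above background on 2 of 3 control arrays. It is named here after its values were seen.

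The other 3 lists held no gene that rose or fell. Of 13 tested genes among 14 of the eIF2 and eIF2B machinery, 5 had a higher and 8 a lower mean in CKO liver, with a median difference of -0.01. The smallest p-values there belonged to Dnajc3, the PKR and PERK inhibitor p58IPK, at -0.45 (adjusted p = 0.442), and to Eif2a, an initiation factor distinct from eIF2, at -0.39 (adjusted p = 0.501). The 12 aminoacyl-tRNA synthetase genes, several of which are known ATF4 targets, were higher in 6 and lower in 6, with a median of 0.00. Of these, Sars differed by 0.48 (adjusted p = 0.291) and Mars1 by -0.37 (adjusted p = 0.470). Of 14 tested among 15 endoplasmic reticulum chaperones and stress genes, 6 were higher and 8 lower, with a median of -0.13. Herpud1 and Edem1, both of endoplasmic reticulum-associated degradation, differed by -0.77 and -0.70 (adjusted p = 0.229 and 0.234). These 3 medians depended on the scaling: with quantile normalization they were 0.12, 0.17 and 0.17, and with spike-in scaling 0.31, 0.32 and 0.18, in the order given. The medians of the eIF2 machinery and of the chaperones thereby changed sign. The synthetase median, 0.0022 in the main fit, did not change sign with these scalings but was -0.036 with normexp. With the mean of a gene's probes the 3 medians were -0.25, -0.085 and -0.22, in the same order. The chaperone median was also 0.034 without CKO replicate 1. The members and these lists were measured in the same 6 livers, and the differences between their medians were not tested.

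**Figure D4:**
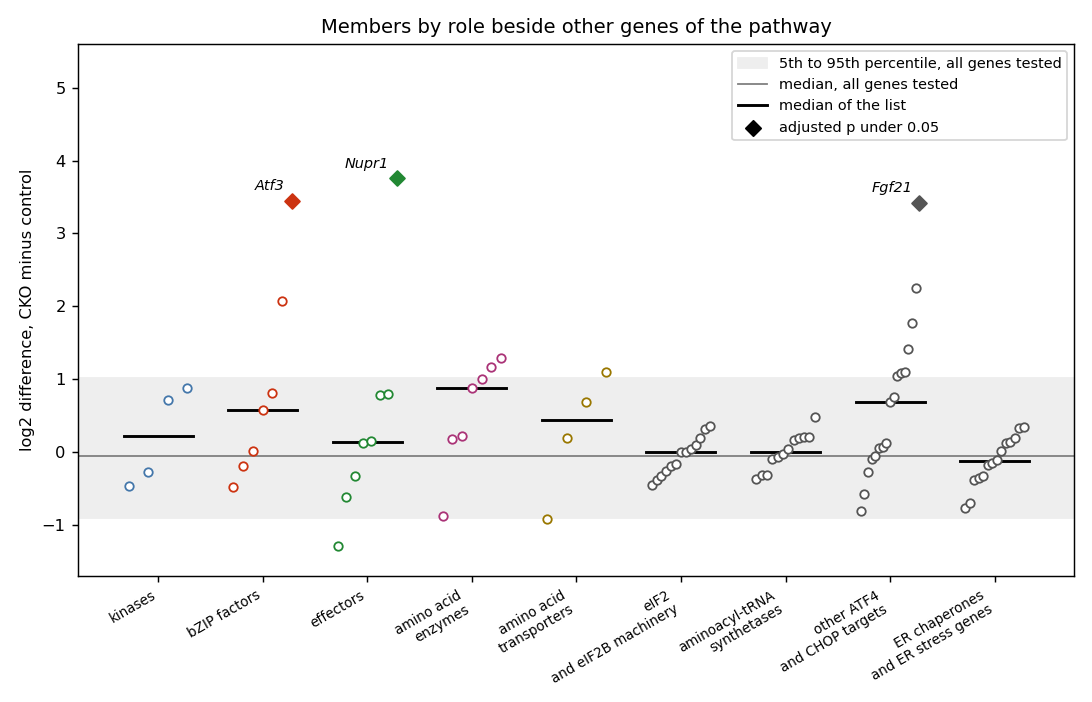
Log2 difference (CKO minus control) of each tested gene, by role for the members and by list for other genes of the pathway, with the median of each as a bar and the 5th to 95th percentile range of all genes tested shaded. Filled diamonds mark the 3 genes with an adjusted p under 0.05, Atf3, Nupr1 and Fgf21, and the eIF2 machinery and synthetase lists lie near 0.

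Markers of liver cell types were read beside these genes, because in whole tissue fewer cells of a type and less RNA per cell cannot be told apart. The liver label was checked on 12 hepatocyte markers, of which 11 were tested and these 11 were well above background on every array. The mean of all 11 was lower in CKO liver, none fell, and their median difference was -0.42, at -0.59 within slide 1 and -0.08 within slide 2. Their summed linear level, in units of the array's 75th percentile, was 2965 to 3566 in the controls and 1942 to 3364 in the CKO livers. The groups of Apoa1 did not overlap.

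Most macrophage markers had a higher mean in CKO liver. Of 8 monocyte-derived macrophage markers, 6 were higher in mean and 2 rose, Trem2 by 4.18 and Gpnmb by at least 22.2-fold. Trem2 was well above background on 2 of 3 control arrays. No control array showed Gpnmb well above background, so it passed the filter on dim probes through the CKO livers alone. The summed level of the 8 monocyte-derived markers was 40.2 to 55.6 in the controls and 45.9 to 74.8 in the CKO livers. Such sums are weighted towards the brightest probes. Here Ly6c2 had the highest control mean, at 4.89, and was at 4.04 in the CKO livers. The groups of Cd9 and Itgax (higher) and Ly6c2 (lower) did not overlap either. All 8 tested of 9 Kupffer cell and macrophage markers had a higher mean and none rose. Marco differed by 3.73, with an adjusted p of 0.0859, and of 0.0107 with the slide as a block. The sum of the 8 was 79.1 to 131 in the controls and 183 to 412 in the CKO livers. Clec4f, Cd5l, Marco and Lyz2 were those of the 8 whose groups did not overlap.

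No marker of the remaining lists was called with genotype alone in the model. With the slide as a block Cldn7, a cholangiocyte marker that differed by 1.48, passed (adjusted p = 0.0429). All 7 cholangiocyte, all 8 stellate cell and fibroblast and all 5 cell cycle markers had a higher mean in CKO liver and none rose, with medians of 0.30, 0.45 and 1.62. For the cell cycle markers, control replicate 2 stood near the CKO livers: its median deviation from the control means was 1.61, against -0.56 and -1.13 in control replicates 1 and 3 and 1.68 to 1.78 in the CKO livers. The groups did not overlap for Epcam and Cldn7, for Lrat, Reln, Col1a1 and Dcn, and for Ccnb1. None of the endothelial, lymphocyte, neutrophil or erythroid markers rose or fell, and among these the groups of S100a9 alone did not overlap. The part of these markers in the values of Atf3, Nupr1, Ddit3 and the other members was not tested.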

How the data were processed

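Liver RNA of 3 control and 3 CKO mice was measured on one-colour (Cy3) Agilent arrays. The authors used Agilent Feature Extraction 10.7.3.1, per the file headers. The deposited spot intensity is background-subtracted and detrended within each array. The deposited value table holds log2 values. No source used here says how, but compared with the scanner files they are log2 intensities scaled to each array's 75th percentile and centred per probe on the median (r at least 0.99998 on each array), so scale, centring and direction are known. The table was used as an alternative. Its column medians run from -0.11 to 0.09.

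From the intensities, spots with outlier flags were left out, spots of a probe averaged, log2 taken and the array's 75th percentile over non-control probes subtracted. Probes were kept where at least 3 of 6 arrays showed them well above background (27859 of 41174). The headers name array design build mm9. Probes were named by transcript accession through the RefSeq gene table (26690 matched), and the brightest kept probe stood for a gene. Of the genes tested, 47 lacked a value on at least 1 array, none of them named here, and no kept probe was saturated.

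The test was limma's (version 3.58.1, R 4.3.3), fitted with lmFit and eBayes on genotype alone, with Benjamini-Hochberg adjustment over all 21059 genes and transcripts. The steps were tested on simulated data. The precision is limited by 3 arrays per genotype. Alternatives were quantile normalization, spike-in scaling, normexp, the value table, other filters, the mean of a gene's probes, slide and replicate blocks, and each array left out. The members and all lists were chosen with earlier results of these data known. The text names all members, the small Maf genes, called genes of other lists or else the 2 with the smallest p, and markers whose groups did not overlap, apart from an item not reported here. Promoter sequences are RefSeq's on GRCm38.p6.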

Additional observations from a re-analysis of the deposited data

How the results depend on the processing

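Over all genes, 114 were called, and this count was 22 with quantile normalization, 13 with spike-in scaling, 74 with normexp, 267 when probes had to be well above background on all 6 arrays, 1 without a filter and 340 with the slide as a block. Leaving out 1 array gave 3 (without CKO replicate 1) to 294 (without CKO replicate 3), with 6, 175, 22 and 11 without control replicates 1, 2 and 3 and CKO replicate 2. Of the members, 2 were called, and 0 with quantile normalization, spike-in scaling or no filter, and 0 to 3 when 1 array was left out. Spike-in scaling moved the median difference to 0.71 for all members, 0.53 for kinases, 0.89 for bZIP factors and 1.002 for amino acid genes, and gave 0.034 for Eif2ak4 and 0.12 for Cebpg. The median of amino acid genes was 0.22 under the filter on all 6 arrays. With 1 array left out, the kinase median ran from 0.095 to 0.26 and the effector median from -0.082 to 0.43. So did the differences of Atf4 from -0.21 to 0.27, Stc2 from -0.32 to 0.44, Ppp1r15a from -0.084 to 0.42 and Gpt2 from -0.035 to 0.35. The other 24 members tested kept their sign under each alternative that tested them. Where no filter or fewer arrays were used, more genes or fewer samples entered the test, and for the other changes the cause was not tested.

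Replicate numbers were not taken to pair the samples. The deviations of same-numbered samples from their group means correlated at 0.06, 0.17 and 0.42, beside -0.37 to 0.29 for samples of different numbers. These values do not settle whether the samples were paired, since replicate 3 of both genotypes also shared slide 2. With the replicate number as a block, 291 genes and 3 members (Atf3, Nupr1 and Ddit3) were called.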
